A study of Mus musculus with 73 samples.

Results

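The genes described here encode the proteins of the cytosolic ribosome. They were chosen by symbol, as names of the Rpl or Rps series with a number together with Rplp0, Rplp1, Rplp2 and Rpsa, leaving out ribosomal S6 kinases and named pseudogenes. Of 23994 mouse gene rows, 84 met this symbol rule, and 80 of them were detected, at FPKM of 1 or more, in at least 8 of 73 cells. These 80 members, 48 of the large subunit and 32 of the small subunit, stand among 6151 genes that passed the same detection filter. FPKM is a fragment count divided by transcript length and by the depth of the library. The 4 rows that did not pass were Rpl10l and Rpl39l, listed in 0 cells, Rpl3l, listed in 3 cells, and Rps4l, listed in 4 cells. Rpl30, the member nearest to the limit from inside, was detected in 12 cells.

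The ribosome is built in the nucleolus from ribosomal RNA and from proteins that are, with few exceptions, each used once per particle, so their messenger RNAs are needed in roughly matched amounts. Many of these messengers begin with a run of pyrimidines at the cap, the 5′ terminal oligopyrimidine tract, through which growth signals acting on mTORC1 control their translation. Their coding sequences have been copied into the mouse genome many times as processed pseudogenes, which matters wherever reads are assigned to genes.

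All 73 cells came from 1 mouse of 10 weeks that carried green fluorescent protein under Csf1r control (genotype Csf1r-GFP, B6 strain). The left lung lobe had been removed 7 days earlier, and the cells were taken from the remaining right lobes. The labels describe macrophages positive for CD45, CSF1R-GFP and F4/80, and name Ly6G without a sign. All cells form 1 group, so nothing here measures a change caused by the operation, cells are not replicates of a condition, and no p-value was computed. Every SD below is the spread between cells of 1 animal.

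The cells held an estimated 347004 to 3486052 mouse fragments, with a median of 1408853, and 1044 to 3745 detected genes. Clustering without the ribosomal protein genes gave 2 clusters with a mean silhouette of 0.267. One cluster of 12 cells was called alveolar-macrophage-like, because markers of that type (such as Ear2, Car4 and Chil3) made up 6 of the 10 genes that led it. The other, of 61 cells, was called classical-monocyte-like, because 4 of its leading 10 were such markers (Plac8, S100a4, Ccr2 and Ly6c2). Alveolar macrophage markers, at least 3 at FPKM of 10 or more, were present in 12 of 12 and in 6 of 61 cells, and classical monocyte markers in 0 of 12 and in 49 of 61. The larger cluster is mixed: 16 of its cells met the same criterion for interstitial macrophage markers, and 5 cells met it for a neutrophil, endothelial or epithelial list. The labelled sort is of macrophages, and the markers of the larger cluster are largely those of monocytes.

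Ribosomal protein transcripts took up a large and variable part of each cell's messenger RNA. The lowest cell had 7.56% of its mouse FPKM in the 80 members, the median cell 18.6% and the highest cell 29.5% (SD 4.46 percentage points, n = 73). Large subunit genes held a median of 9.91% and small subunit genes 8.57%. Per gene, the small subunit stood higher: the mean over large subunit members divided by that over small subunit members had a median of 0.755 and ran from 0.553 to 1.01 over cells. Because these transcripts are short, they held a smaller part of the fragments themselves, with a median of 7.33% and a range from 3.19% to 12.6%.

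Detection was broad. Of the 80 members, 38 were detected in every cell, against 1.2% of all 6151 genes, and 72 were detected in at least 70 cells. A cell had 64 to 80 of the members, with a median of 78, and 5 cells had every one. The 5 members detected in fewer than 60 cells were Rpl30 (12 cells), Rpl26 and Rpl22l1 (47 cells each), Rpl7l1 (50 cells) and Rps27l (55 cells).

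Before levels are compared, the rows of Rpl30 and Rpl26 need their near-identical copies beside them. In GENCODE M21, on GRCm38, 311 annotated genes shared at least 50% of their 31-base words with a row of the rule, and 300 of these were pseudogenes. Of the 80 members, 70 had at least 1 such copy, and a median of 56.4% of a member's own words occurred in other annotated genes. The table lists 10 of the copies, for 9 members. The 4 pairs below are shown because the row named as the copy held much of the signal. Each line holds 60 coding bases, with capitals at the bases that differ. Positions are counted from the A of the start codon. The stretches are bases 67 to 126 for Rpl30, 148 to 207 for Rpl26, 103 to 162 for Rpl34 and 1 to 60 for Rps27.
Rpl30: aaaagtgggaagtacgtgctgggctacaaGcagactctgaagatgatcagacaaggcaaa
Gm12191: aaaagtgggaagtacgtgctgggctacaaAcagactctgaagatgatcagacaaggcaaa
Rpl26: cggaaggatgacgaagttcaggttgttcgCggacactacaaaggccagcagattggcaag
Gm15772: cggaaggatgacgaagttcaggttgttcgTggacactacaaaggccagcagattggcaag
Rpl34: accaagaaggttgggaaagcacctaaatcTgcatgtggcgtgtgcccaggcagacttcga
Rpl34-ps1: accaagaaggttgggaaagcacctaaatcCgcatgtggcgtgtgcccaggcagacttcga
Rps27: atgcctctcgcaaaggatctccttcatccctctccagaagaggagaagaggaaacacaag
Rps27rt: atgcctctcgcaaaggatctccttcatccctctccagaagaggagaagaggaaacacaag

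Rpl30, a large subunit protein gene with introns (chr15:34440505-34443640, minus strand), and the intronless processed pseudogene Gm12191 (chr11:49678710-49679057) differed at 1 of 348 coding bases, G96A. Rescaled Rpl30 had a median of 0.00297 over 73 cells and a highest value of 1462, while Gm12191 ran from 7.51 through a median of 1709 to 7446. Gm12191 was the higher row in 72 of 73 cells and held 96.5% of the summed mean of the pair. The low value of Rpl30 thus describes that row alone. Its sum with Gm12191 had a mean of 2047 ± 1612 (SD, n = 73), which lies near the median of all members' means, 1982.

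The same pattern held for Rpl26, another large subunit gene (chr11:68901583-68906989, plus strand). Its copy Gm15772 (chr5:3236431-3236868) differed at 2 of 438 coding bases, 1 of them C177T, and had a mean of 2760 ± 2566 against 243 ± 319 for Rpl26 (SD, n = 73 each). Gm15772 was higher in 72 cells and held 91.9% of the sum. Rpl34-ps1 (chr6:71124610-71124963) differed from Rpl34 at 2 of 354 coding bases, with T132C in the window shown. It was higher than Rpl34 in 70 cells and held 75.1% of the sum, and the rows of this pair rose and fell together across cells (Spearman rho 0.84, n = 73 cells of 1 table).

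Rps27 behaved differently. Its coding sequence is identical over all 255 bases to that of Rps27rt (chr9:114982366-114982739), which the annotation gives as protein coding. Both rows were detected in all 73 cells, Rps27rt was the higher in 29, and their ranks ran in opposite directions (rho -0.27, n = 73). Rps27 alone had a coefficient of variation, the SD divided by the mean, of 0.852. The sum of both rows had 0.572. Reads from identical coding sequence cannot be told apart by gene, so Rps27 and Rps27rt are best read as a sum.

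**Figure D1:**
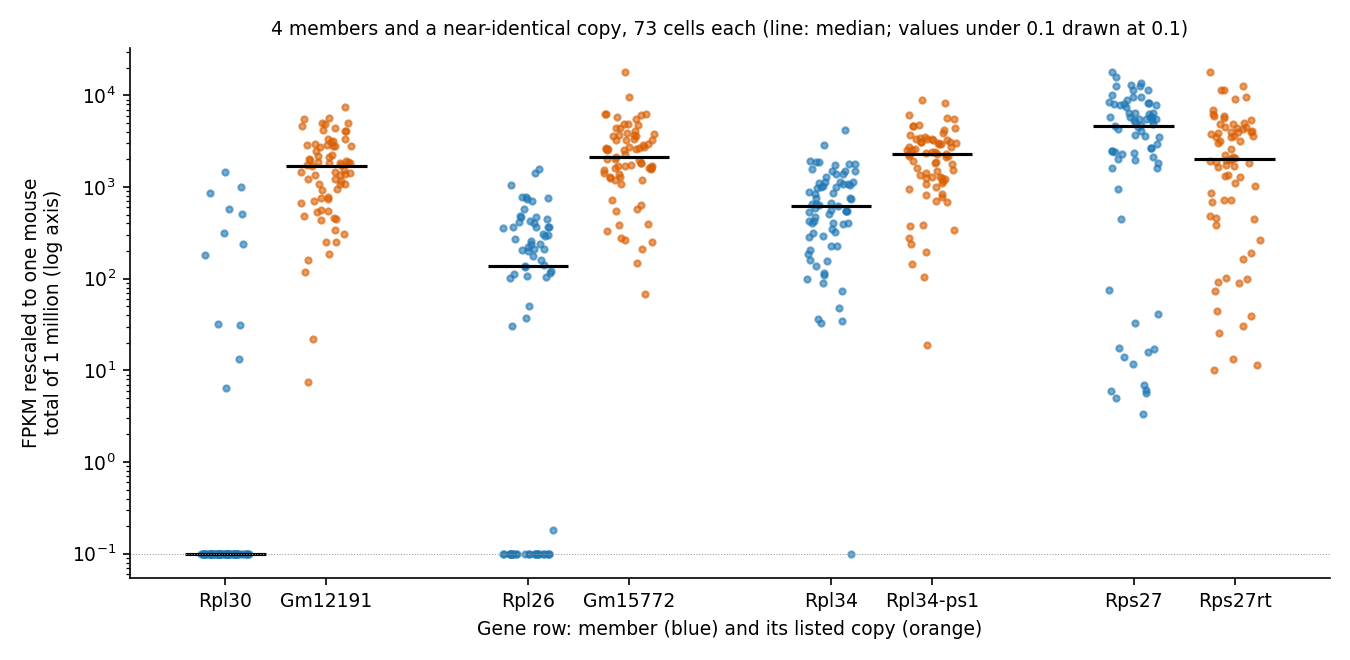
Rescaled FPKM on a log axis for 4 members (blue) and their listed copies (orange); each point is 1 of 73 cells and the line is the median. Gm12191 and Gm15772 lie above Rpl30 and Rpl26 in 72 of 73 cells each, whereas Rps27 and Rps27rt overlap over their whole range.

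The other listed copies were minor. Rpl14-ps1 made up 10.4% of its pair with Rpl14, Rpl31-ps12 11.3%, Rps15a-ps4 18.4%, Rps15a-ps6 24.5%, Gm15421 3.13% of its pair with Rpl22l1, and Gm6654 1.48% of its pair with Rps26. Adding all 10 copies to the members moved the median share per cell from 18.6% to 19.8%.

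Levels of the members differed widely, although most of their proteins are used in equal numbers. On the rescaled FPKM scale, which is per length, the means over 73 cells ran over a 178-fold range, but the middle of the distribution was narrow: the quartiles were 1243 and 3010, a 2.42-fold span. The median of the members' means was 1982, against 28.8 for all genes that passed the filter. The members made up 20 of the 50 genes with the highest means and 43 of the highest 100.

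Rpl41, which encodes the shortest ribosomal protein at 25 residues (chr10:128548114-128549305, minus strand), led. Its lowest cell had 831, the median 9534 and the highest 20515, with a mean of 9779 ± 3846 (SD, n = 73). It was the highest member in 34 of 73 cells. The next were Rps29, with a mean of 6896 ± 3745, Rpl32 with 6078 ± 3037, Rps9 with 5566 ± 3068 and Rpl35 with 5326 ± 2558. Rps27 (4975), Rps28 (4966), Rps14 (4804) and Rps18 (4723), all of the small subunit, followed. The 10 highest members held 30.6% of the summed mean of all members.

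The order depends on the division by length. By mean estimated fragments, the 3 leading members were Rps9 (3468), Rplp0 (3341) and Rpl41 (3120), and Rplp0, the anchor of the ribosomal stalk, was only the 29th by FPKM. The lengths used by the authors' tools can be read from both tables, as signal per FPKM relative to Rplp0. For Rpl41 this gave 0.240, where its first annotated coding transcript is 0.429 times as long as that of Rplp0. For Rpl38, a large subunit gene with a short messenger, it gave 0.128 against 0.268. Relative to Rplp0, the FPKM of both rows was thus computed with less than the annotated length. These rows are not exceptions among short messengers: Rps28 gave 0.139 against 0.289 and Rps29 0.191 against 0.287. Some members, such as Rpl22 below, went the other way.

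**Figure D2:**
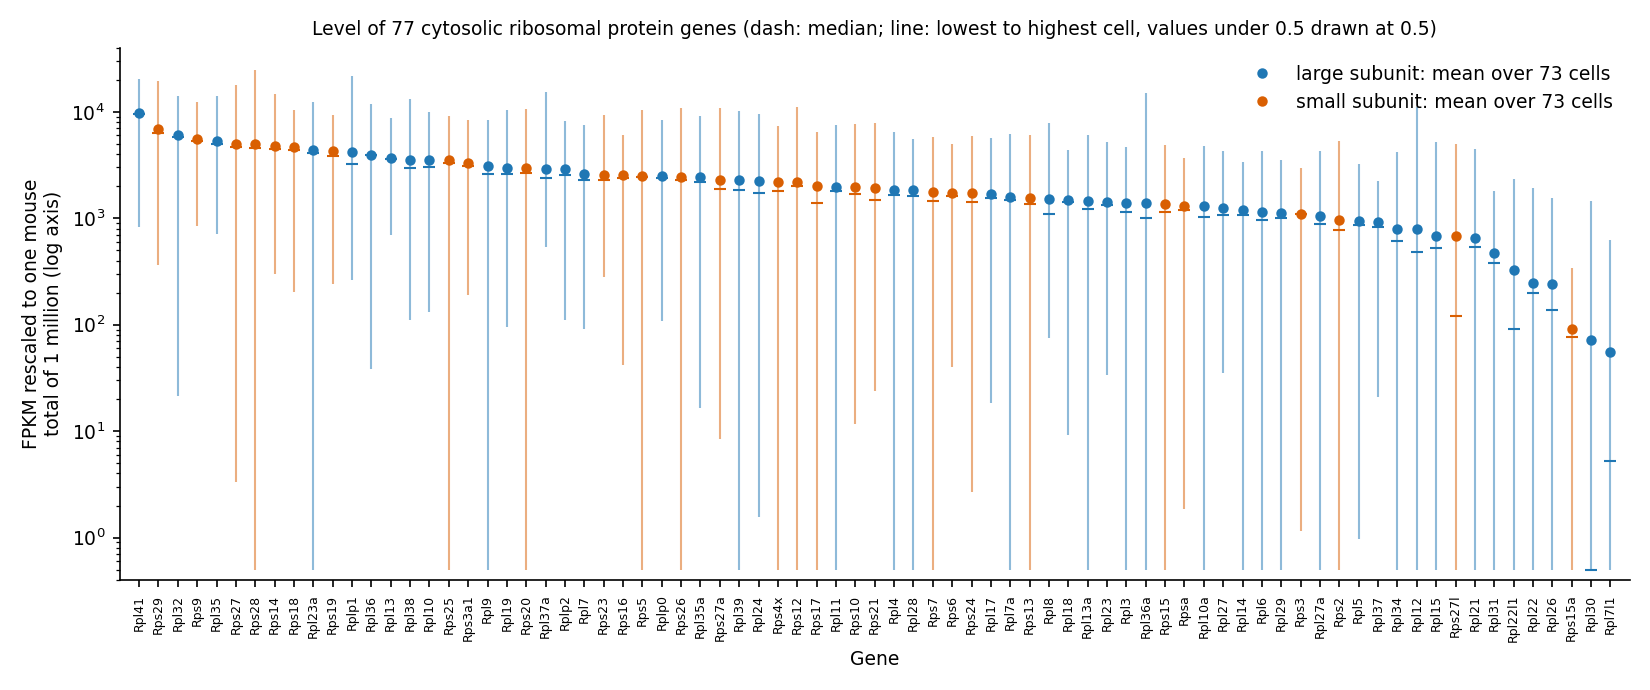
Mean rescaled FPKM (points, log axis) of 77 of the 80 members over 73 cells, ordered from high to low and coloured by subunit; dashes are medians and lines run from the lowest to the highest cell. Rpl41 leads at 9779 and most members lie within a narrow band, while the means fall off toward a low end that includes Rpl30 and Rpl26.

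The lower end was mixed. The 10 lowest means were those of Rpl7l1 (54.8), Rpl30 (71.3), Rps15a (91.01), Rpl26 (243), Rpl22 (245), Rpl22l1 (326), Rpl31 (471), Rpl21 (656), Rps27l (678) and Rpl15 (679). Besides Rpl30 and Rpl26, whose copies held most of the signal, 3 of these are the paralogues Rpl7l1, Rpl22l1 and Rps27l. Rps15a, a small subunit gene, differed between the tables. Its signal per FPKM was 4.15 times that of Rplp0, although its annotated transcript is 0.471 times as long, and with a mean of 479 estimated fragments it stood above 10 of the members by fragments, against 2 by FPKM. For Rpl22 the corresponding values were 1.70 and 0.349, and for Rpl15 1.40 and 0.650.

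Cell-to-cell variability was small for the level of these genes. Squared coefficients of variation were set beside a smooth trend on the mean over all 6151 genes, of which 49.7% lay under it. Of the 80 members, 66 lay under the trend (82.5%). Highly detected genes do so in general: among genes outside the members that were detected in at least 60 cells, 248 of 334 (74.3%) lay under it, and among the members detected in at least 60 cells 63 of 75 (84%). Coefficients of variation had a median of 0.733 and ran from 0.393 for Rpl41 to 3.41 for Rpl30.

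Among the members farthest under the trend were Rps15a, Rpl37, Rps3 and Rpl31. The trend is read at the mean level, so the place of Rps15a rests on an FPKM out of line with its annotated length, as given above. Rps3, a small subunit protein at the messenger entry channel, had a lowest cell of 1.14, a median of 1098 and a highest of 2939 (coefficient of variation 0.556). Its highest cell lay under 3 times its median. The 5 farthest above the trend were Rpl12, Rpl36a, Rps27, Rplp1 and Rpl30. Rpl12, which forms the base of the stalk, had a median of 481 and was detected in 65 cells, but reached 11140 in 1 cell. Rpl36a had a median of 1007 and reached 15189. For Rpl12 and Rpl36a the highest cells thus lay over 10 times the median, while Rps27 and Rpl30 have listed copies at the levels given above.

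**Figure D3:**
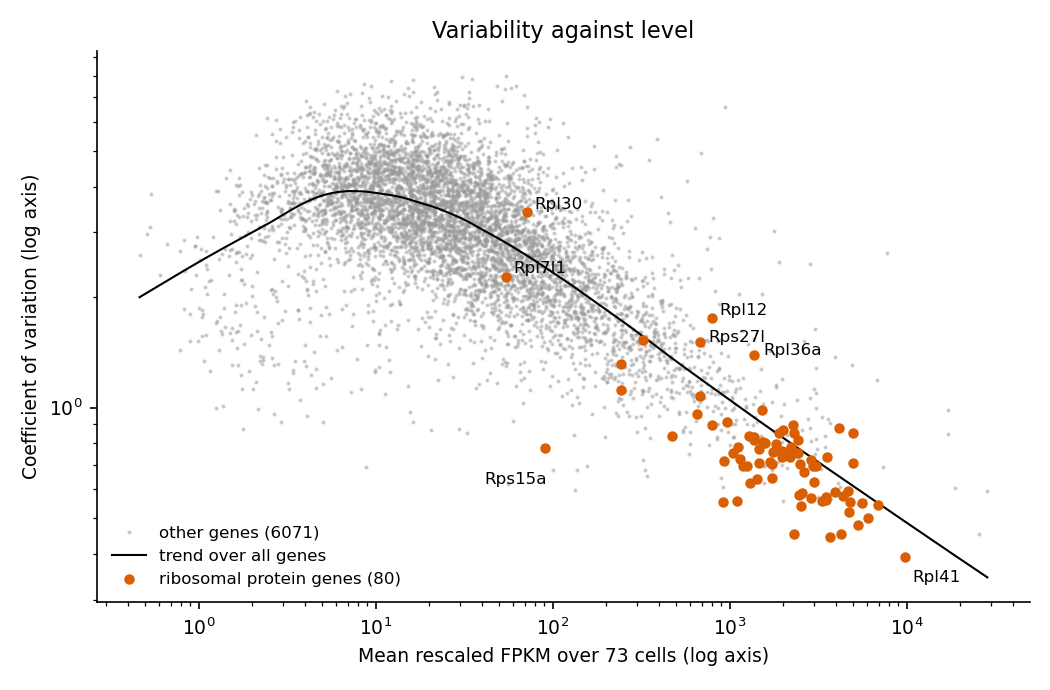
Coefficient of variation against mean rescaled FPKM, both on log axes, for 6071 other genes (grey) and the 80 members (orange), with the trend over all genes as a line. The members lie at high means, 66 of 80 of them under the line. Rps15a, whose FPKM is out of line with its annotated length, lies farthest under it, and Rpl12 and Rpl36a lie above.

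Members were only weakly correlated with one another across cells. Over the 2775 pairs of the 75 members detected in at least 60 cells, Spearman's rho had a median of 0.10 and ran from -0.36 to 0.54, against a median of 0.02 over all pairs of 409 such genes. Of the member pairs, 6.63% exceeded 0.3, against 2.56% of all pairs. Pairs within a subunit (median 0.10) and pairs across subunits (median 0.10) had the same typical value. All points are cells of 1 animal that share chemistry, scaling and depth, and with median-of-ratios scaling the median fell to 0.03 (0.02 for all pairs) and with spike-in scaling it was 0.44 (0.28 for all pairs), so the size of this correlation depends on the scaling.

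The highest pair was Rpl14 with Rpl21 (rho 0.54), both large subunit genes, followed by Rpl32 with Rps27a (0.53) and Rps23 with Rps9 (0.48). Against the mean of all other members, Rpsa, the laminin receptor-related small subunit protein, stood highest (0.46), and Rpl30 lowest (-0.18), with Rplp2 also below 0 (-0.04).

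Ribosomal protein transcripts took a smaller share in the alveolar-macrophage-like cluster than in the larger cluster as a whole. Those 12 cells ran from 7.56% through a median of 15.9% to 19.5%, and the 61 classical-monocyte-like cells from 10.6% through 19.8% to 29.5%. The medians differed by -3.88 percentage points (alveolar-macrophage-like minus classical-monocyte-like). The clusters overlapped, but every one of the 12 cells lay below the median of the larger cluster, and 32 of the 61 cells lay above all 12. The order of the medians was the same within each of the 8 letters in the column names, where each letter held 1 or 2 alveolar-macrophage-like cells. As fragments, the medians were 6.14% and 7.86%. Within the mixed larger cluster the share was not uniform: cut into 4, 48 cells led by Plac8 and Ifitm3 had a median of 19.97%, 8 cells led by H2-Aa and with C1qb among their leading genes 16.7%, and 5 cells led by H2-Aa and Stmn1 17.4%. Medians under that of the whole thus also occurred within the larger cluster. As an amount, the members' FPKM per unit of spike-in FPKM ran from 0.0352 through a median of 0.140 to 0.232 in alveolar-macrophage-like cells. In the others it ran from 0.0337 through 0.157 to 0.529. The first range lies within the second, which reaches further up, and the upper quartiles were 0.163 and 0.221.

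Depth and RNA content moved with the share. Mouse fragments per spike-in fragment, read from the 1 spike-in row that held values, give a measure of RNA content, and across 73 cells the share fell as it rose (Spearman rho -0.42, Pearson r -0.42, and rho -0.41 without the 2 cells farthest from the median of that measure). Within the larger cluster rho was -0.41 (n = 61), and within the alveolar-macrophage-like cells -0.85 (n = 12). The share also fell with the number of genes detected (rho -0.39, n = 73). The alveolar-macrophage-like cells had a median of 2.01 mouse fragments per spike-in fragment and 2740 detected genes, and the classical-monocyte-like cells 1.70 and 2174. The part of RNA content in the cluster difference was not tested.

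**Figure D4:**
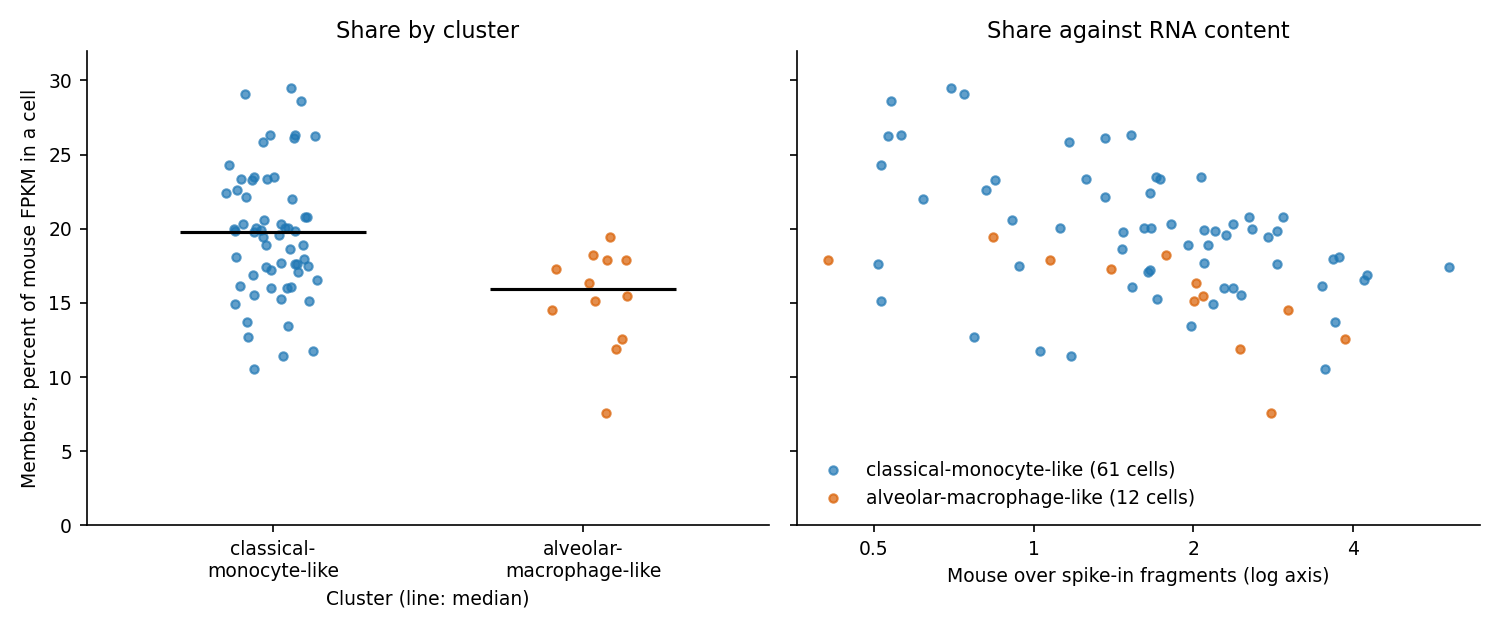
Left, percent of mouse FPKM in the 80 members per cell, by cluster, with medians as lines; right, the same percent against mouse fragments per spike-in fragment on a log axis. The 12 alveolar-macrophage-like cells (orange) lie between 7.56% and 19.5%, all below the median of 19.8% of the 61 classical-monocyte-like cells (blue), and the share falls toward higher ratios in both.

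Ribosomal RNA precursor gave a further reading. Rn45s, the row of the 45S precursor from which most ribosomal RNA is cut, is no polyadenylated messenger, so its level in libraries of polyadenylated RNA is given as a description only. Its rescaled level ran from 3233 through a median of 6420 to 45818 in alveolar-macrophage-like cells and from 1821 through 3280 to 33866 in classical-monocyte-like cells. The cluster with the lower share of ribosomal protein transcripts thus had the higher median of Rn45s, although within each cluster both rose together (rho 0.51, n = 61, and 0.58, n = 12). Without the 2 cells of each cluster farthest from its median of Rn45s, rho was 0.47 and 0.43.

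Gene by gene, most members had lower means in alveolar-macrophage-like cells. The mean was lower for 64 of 80 members (80%), against 60.6% of all 6151 genes and 201 of 334 other genes detected in at least 60 cells (60.2%). By medians it was 62 of the 75 members in at least 60 cells, against 58.1% of other such genes. Both subunits took part, with 39 of 48 large and 25 of 32 small subunit members lower. The median ratio of means was 0.766 over the members and 0.703 over all genes, a smaller reduction for the members. Among genes detected in at least 60 cells it was 0.755 over the 75 members and 0.848 over the 334 others, a larger reduction for the members. Whether the members were reduced more than other genes thus depends on the genes they are set against. With median-of-ratios scaling, which rests largely on the members themselves, 47 members were lower (58.8%, against 53.8% of all genes), and the median ratio was 0.970, against 0.877 over all genes. With the deposited FPKM, the spike-in row or a total without members, 61 to 66 were lower. The median ratios there were 0.779, 0.843 and 0.723 over the members, against 0.750, 0.780 and 0.668 over all genes.

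Few members differed by 2-fold or more. In all, 10 were at least 2-fold lower in the alveolar-macrophage-like cells (12.5%, against 40.1% of all genes) and 2 were at least 2-fold higher (2.5%, against 19.2%). The lower ones included Rps27, Rpl30, Rps6, Rps27a, Rpl18, Rps3, Rpl21, Rplp0 and Rps7, and the 2 higher ones were Rps27l and Rplp1. Both shares lie below the background for ratios of means, but that background is of sparser genes. Genes outside the members were detected in a median of 19 cells at a median level of 28.2, while 72 members were detected in at least 70 cells. A share over other genes detected in at least 60 cells is not given here, so the low shares are not shown to be particular to the members. The lower one also depends on the measure. By the difference of mean log2 values, 17 members were lower (21.3%, against 12.6% of all genes) and 1 was higher (1.25%, against 22.2%). With median-of-ratios scaling 5 were lower (6.25%, against 35.5%).

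Rps6, whose protein is the target of S6 kinase downstream of mTORC1, ran from 40.0 through a median of 676 to 1898 in alveolar-macrophage-like cells and from 76.2 through 1815 to 5024 in classical-monocyte-like cells. Its mean was 2.97-fold higher in the latter, and 11 of the 12 alveolar-macrophage-like cells lay below the latter's median, though the ranges overlap. Rps27a, made as a fusion with ubiquitin, was 2.71-fold higher in the classical-monocyte-like cells, and Rpl18, a large subunit protein gene, 2.64-fold. Rps3 (2.25-fold) had all 12 alveolar-macrophage-like cells below the median of the others. Taken as alveolar-macrophage-like over classical-monocyte-like cells, the ratios of means of these genes stayed below 1 in each of the 5 scalings. The same held with any 1 of the 12 cells left out. The ratio of Rpl30 rested on 1 alveolar-macrophage-like cell with 238, the only one of the 12 in which the row was detected.

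Transcripts of the stalk genes Rplp0, Rplp1 and Rplp2 differed between the clusters in opposite directions. The stalk binds elongation factors. Rplp0, the anchor, ran from 107 through 922 to 3618 in alveolar-macrophage-like cells and from 291 through 2526 to 8329 in the others, with a mean 2.12-fold higher in the latter. Rplp1 ran from 2255 through 4830 to 21802 in alveolar-macrophage-like cells and from 260 through 2928 to 12841 in the others, a ratio of means of 2.23. Rplp2, which pairs with Rplp1 in the stalk, ran from 1513 through 4233 to 8168 against 110 through 2489 to 7240, a ratio of 1.49. Thus 8 and 9 of the 12 alveolar-macrophage-like cells lay above the other cluster's median for Rplp1 and Rplp2, and 10 of 12 lay below it for Rplp0. Leaving out 1 of the 12 cells took the Rplp1 ratio as low as 1.86, and over the 5 scalings it ran from 1.68 to 2.82. The highest alveolar-macrophage-like Rplp1 values, 21802, 15990, 15555 and 8884, came from cells with 0.410, 1.40, 0.839 and 1.07 mouse fragments per spike-in fragment. That cluster's median of this measure was 2.01. In the larger cluster, the cell highest in Rplp1 (12841) had 0.700, but the lowest (260) had 0.517. The part of RNA content in the Rplp1 difference was not tested.

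**Figure D5:**
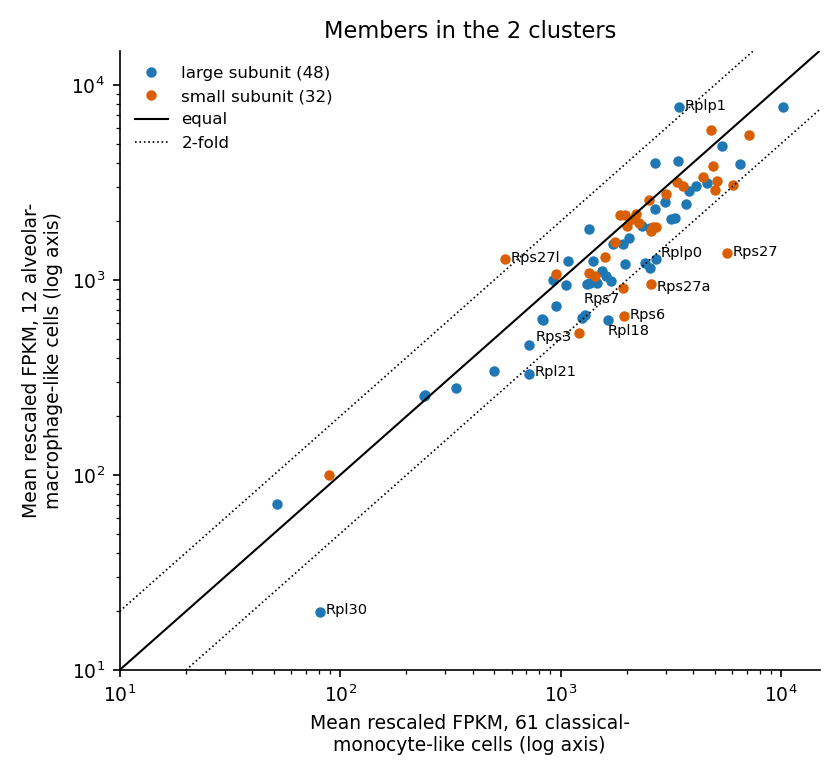
Mean rescaled FPKM of each member in the 12 alveolar-macrophage-like cells against that in the 61 classical-monocyte-like cells, on log axes, with lines at equality and at 2-fold; the named points lie past 2-fold. Most points lie under the line of equality (64 of 80), with Rplp1 and Rps27l on the other side.

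Rps27 and Rps27l differed between the clusters in opposite directions. Both encode small subunit proteins of 84 residues, and Rps27l is known as a target of p53. Their coding sequences differ at 61 of 255 bases (76.1% identity), so reads of these genes can be told apart over much of their length. The stretch with the most differences, coding bases 4 to 63, holds 19 of them, in capitals.
Rps27: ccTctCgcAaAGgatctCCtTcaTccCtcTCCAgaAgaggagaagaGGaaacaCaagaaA
Rps27l: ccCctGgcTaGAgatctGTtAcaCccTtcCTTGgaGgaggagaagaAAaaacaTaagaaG

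Rps27 summed with Rps27rt ran from 108 through a median of 2927 to 13924 in alveolar-macrophage-like cells and from 173 through 8484 to 23351 in classical-monocyte-like cells. Rps27l was detected in 11 of 12 and in 44 of 61 cells, with medians of 968 and 114 and highest values of 4989 and 3825. Its part of the 3 rows had a median of 19.8% (0% to 74.1%) in alveolar-macrophage-like cells and 1.18% (0% to 37.9%) in the others. The ranges overlap, and some cells of both clusters held little or no Rps27l. High Rps27l was not particular to the alveolar-macrophage-like cells. Within the larger cluster, the 5 cells led by H2-Aa and Stmn1 had Rps27l values of 785, 1354, 1383, 1982 and 2064. Over the 5 scalings the ratio of mean Rps27l ran from 2.19 to 2.77, and leaving out 1 of the 12 cells took it as low as 1.68.

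Other paralogues were present to different degrees. Rpl22l1, which can take the place of Rpl22, was detected in 47 cells with a mean of 326 ± 499, and Rpl22 in 70 cells with a mean of 245 ± 274 (SD, n = 73 each). Rpl22l1 was the higher of the pair in 33 cells. Rpl36al, whose symbol falls outside the rule, was detected in 68 cells with a mean of 1431 ± 1306, beside 1380 ± 1919 for Rpl36a in 70 cells, and was higher in 34. For Rpl36a and Rpl36al the means thus differed by less than the spread between cells. For Rpl22 and Rpl22l1 the order depends on the measure: medians were 199 and 91.01, and mean estimated fragments 504 and 134, with Rpl22 the higher in both. Rpl7l1 (50 cells, mean 54.8) was below Rpl7 (73 cells, mean 2633) in every cell.

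The paralogues best known from other tissues were nearly absent. Rpl10l and Rpl39l, known from testis, were listed in 0 cells, beside 3514 for Rpl10 and 2269 for Rpl39. Rpl3l, known from striated muscle, was detected in 3 cells with a highest value of 53.6. Rps4l was detected in 4 cells and reached 3062 in 1 of them.

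Genes that work beside the ribosome were read from lists. Fau, which encodes a ribosomal protein fused to a ubiquitin-like sequence, and Gnb2l1, the scaffold RACK1 of the small subunit, are not covered by the symbol rule. Their means were 3147 ± 1793 and 1064 ± 885 (SD, n = 73), within the range of the members, and their ratios of means between the clusters were 0.720 and 0.570. They lay on the same side as most members. The list read as elongation held elongation factor genes and others, among them Tpt1, Naca, Btf3 and Eef1e1. All 10 genes of this list were detected in at least 8 cells (median 67 cells), with 0 past 2-fold in either direction. Over all 6151 genes, 19.2% were at least 2-fold higher and 40.1% at least 2-fold lower in alveolar-macrophage-like cells. Eef1a1, which delivers aminoacyl-tRNA, had a mean of 4761 ± 2466.

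Of 31 initiation factor genes, 1 was at least 2-fold higher and 9 at least 2-fold lower in alveolar-macrophage-like cells. Of the 31 ribosome biogenesis genes detected, out of 37 listed, 5 were higher and 11 lower. Of the 68 mitochondrial ribosomal protein genes detected, out of 77, 17 were higher and 21 lower. For all 6071 genes outside the members these counts were 1181 and 2456, and the shares over all 6151 genes were 19.2% and 40.1%. The mitochondrial ribosomal protein genes had a median level of 55.8, far under that of the cytosolic members, and a median ratio of means of 1.09.

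The genes outside the rule whose levels ran most like the members' mean across 73 cells, among those detected in at least 60 cells, were Sub1 (rho 0.43), Shfm1 (0.42), Ccl9 (0.41), Eef1a1 (0.41), Gm6654 (0.41), Crip1 (0.40), Cd52 (0.39), Srgn (0.39), Actg1 (0.36) and Emp3 (0.35). The median over 334 such genes was 0.08. Within the classical-monocyte-like cells alone, Eef1a1 kept 0.40 and Gm6654, a copy of Rps26, 0.38, while Srgn had 0.20.

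Starts of transcription were read from RefSeq on GRCm38.p6, which lists 60 of the 80 members. The 6 below run from strongly to weakly pyrimidine-rich and are given as the 15 bases before and 15 bases after the annotated start, with capitals for the longest unbroken run of C and T within 5 bases of it.
Rpl35: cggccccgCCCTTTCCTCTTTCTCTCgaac
Rps18: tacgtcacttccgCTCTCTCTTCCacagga
Rps27: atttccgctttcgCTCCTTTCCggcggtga
Rps27l: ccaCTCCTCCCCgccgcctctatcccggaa
Rps28: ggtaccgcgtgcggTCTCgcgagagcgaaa
Rpl41: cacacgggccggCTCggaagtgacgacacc

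The windows lie at chr2:39005117-39005146 (minus strand) for Rpl35, chr17:33955651-33955680 (minus) for Rps18, chr3:90213634-90213663 (minus) for Rps27, chr9:66946071-66946100 (plus) for Rps27l, chr17:33824548-33824577 (minus) for Rps28 and chr10:128549154-128549183 (minus) for Rpl41. A run of at least 8 was found for 24 of 60 members (40%), against 10.96% of 27025 genes, taking the longest run over a gene's listed starts. Counted per listed start, it was 33.8% against 9.38%. An annotated start can lie some bases from the one used in these cells.

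Members with long and with short runs had similar median levels. The 24 members with a run of at least 8 had a median level of 1785 and the 36 with a shorter run 1834. Among the highest members, Rpl41 and Rps28 have short runs at the listed start, while Rpl35 (18), Rps18 (11), Rps9 (9) and Rps27 (9) have long ones. Other letters searched on both strands of the 300 bases around the start were CCGGAAG, the core bound by ETS factors, found for 41.7% of members and 9.93% of all genes, GGGCGG, bound by SP1, for 63.3% and 38.2%, AAGATGGCG, bound by YY1, for 6.67% and 1.64%, and TATAAA for 11.7% and 15.7%. Each was counted without regard to overlap with the others. A match describes the sequence and is not evidence of binding in these cells.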

How the data were processed

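Single cells were captured on a Fluidigm C1 chip, and per the labels' protocols their polyadenylated RNA went through SMARTer amplification and Nextera XT library preparation. CASAVA 1.8, TopHat2 2.1.0, Cufflinks 2.2.1, Cuffnorm and the mm10 build are named in the submitters' processing notes. The gene annotation is not given in the sources used here, nor is a cell filter. The FPKM values were deposited as normalised by the authors' tools. The deposited count table holds a signal, fragments divided by a factor per cell: 99.6% of 98223 low values lay within 0.1 of a whole step, and signal divided by the step gave estimated fragments, with no count model fitted.

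All 100 spike-in rows, of which 1 held values, were removed, and each cell's mouse FPKM was rescaled to 1000000. Detection meant deposited FPKM of 1 or more. Clusters came from Ward linkage on 10 components of the 1000 most variable genes, without members or pathway genes. Naming a cluster took 3 or more markers among the 10 genes that led it. Rank correlations used log2(rescaled FPKM + 1), that is, a pseudocount of 1, and the variability trend was a lowess fit with a span of 0.3. No doublet caller was run. Named genes are the 10 highest and 10 lowest members, the 5 farthest on each side of the trend and of the cluster ratio, members in fewer than 60 cells, paralogue pairs, pathway list members and the 10 genes most like the members' mean; others past 2-fold (Rps3, Rpl21, Rplp0, Rps7), in the extreme pairs, or used as examples of length (Rpl38) or role were named after their values were seen. Members and lists were chosen with earlier results of these data known. Alternatives covered scaling, thresholds, depth, clustering and cells, and 12 of the recomputed values come from settings added after seeing the data. Functions were tested on simulated data. Software was Python 3.11.15, numpy 2.4.6, pandas 2.3.3, scipy 1.17.1, scikit-learn 1.9.0, statsmodels 0.14.6 and matplotlib 3.10.9. Some genes that these rules cover are not reported here.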

Additional observations from a re-analysis of the deposited data

Results flagged for a closer look

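Of 16 rows outside the members that carry a ribosomal protein name or are an annotated copy of a member, 13 held signal, here over 3 estimated fragments in at least 1 cell. Gm15772 did so in 73 cells, Gm12191, Rps27rt and Rpl34-ps1 in 72 each, Rplp2-ps1 in 71, Rpl14-ps1 in 66, Rps15a-ps6 in 62, Rpl31-ps12 in 58, Gm6654 in 55, Rps15a-ps4 in 53 and Gm15421 in 33. Rps4l did so in 4 cells and Rpl3l in 2. There are no control samples, and the limit of 3 fragments covers counting error only.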

How the results depend on the processing

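Of 72 values recomputed under alternative settings, for 16 results, 9 moved past the limit set and 0 reversed. That limit is wide for medians, 1 SD between cells or pairs, and staying within it is no sign of stability: the median rho between members ran from 0.03 with median-of-ratios scaling to 0.22 with the deposited FPKM without passing it. By fragments in place of FPKM, the median member share was 7.33% and the large to small subunit ratio 0.865. With spike-in scaling, the median rho between members was 0.44 (0.28 over all gene pairs) and 1 member was past 2-fold higher in the smaller cluster. Taking instead the difference of mean log2 values, 1 was higher (22.2% of all genes) and 17 were lower (12.6% of all genes); with median-of-ratios scaling 5 were lower (35.5% of all genes). At a detection threshold of FPKM 10, Rpl7l1 was detected in 18 cells and Rpl3l in 1. The cluster difference in share ran from -4.05 to -1.72 percentage points over 9 alternatives, the latter by fragments. Per 100 of spike-in FPKM, the members' FPKM differed by -1.68. The number of members under the variability trend ran from 55 to 68 over 7. Of the table's rows, 0 carry an mt- name, so leaving out mitochondrial genes changed nothing; a cut into 2 clusters is the reported one, and a pseudocount of 0.1 cannot change a rank. No paired analysis was possible because all cells form 1 group. With every cell thinned to 347004 mouse fragments, the cluster difference was -3.61 percentage points. With 1 mouse, no error between animals can be given.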
